A study of Homo sapiens with 6 samples.

Results

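The genes followed here were the 4 ERBB receptors EGFR, ERBB2, ERBB3 and ERBB4, and the receptor inhibitors ERRFI1 and LRIG1. They were chosen by symbol from the 36459 gene symbols of the deposited table, and all 6 were listed there. Of 188753 transcripts in the transcript table, 76 were matched to these genes in the GENCODE annotation. Transcripts without such a match are not among the 76. RNA from the human non-small cell lung cancer line PC9 was sequenced in 6 libraries. The PC9 group was 3 libraries of parental cells, each from an independent culture, and the persister group, PS PC9, was 3 libraries of cells kept for 6 days in 15 µM erlotinib, pooled from 9 independent cultures. Erlotinib blocks the kinase of EGFR. Both groups were of 1 cell line, and PC9 cells are known to carry an activating in-frame deletion in the EGFR kinase domain. The counts were per gene and per annotated transcript and did not separate alleles. The comparison asks how the mRNAs of the inhibited receptor, its partners and its inhibitors differed between parental and persister cells.

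ERBB receptors are tyrosine kinases of the cell surface that pair with each other when a ligand binds. EGFR has an active kinase and its own ligands, ERBB2 has no known ligand and serves as the preferred partner, ERBB3 has a weak kinase and couples strongly to PI3K, and ERBB4 binds neuregulins. ERRFI1 (MIG6) is an intracellular inhibitor that binds the EGFR kinase domain, and its transcription is known to be induced by ERBB signaling through ERK. LRIG1 is a membrane protein that binds ERBB receptors and promotes their degradation.

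Promoter sequences were taken from RefSeq, on GRCh38.p14, for the members for which 1 of the RefSeq starts is the start of the transcript given in brackets. They are the 250 bases before the start, 5′ to 3′ on the strand of the gene, and are shown because EGFR, ERRFI1 and LRIG1 were the members that differed between the groups and had such an entry. Capitals mark a GC box (GGGCGG on either strand).
EGFR, chr7:55018767-55019016, plus strand (EGFR-201): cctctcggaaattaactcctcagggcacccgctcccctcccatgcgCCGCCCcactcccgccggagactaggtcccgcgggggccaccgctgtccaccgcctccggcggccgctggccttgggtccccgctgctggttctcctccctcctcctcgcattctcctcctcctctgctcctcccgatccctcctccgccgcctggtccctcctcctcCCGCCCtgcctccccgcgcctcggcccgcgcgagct
ERRFI1, chr1:8026310-8026559, minus strand (ERRFI1-201): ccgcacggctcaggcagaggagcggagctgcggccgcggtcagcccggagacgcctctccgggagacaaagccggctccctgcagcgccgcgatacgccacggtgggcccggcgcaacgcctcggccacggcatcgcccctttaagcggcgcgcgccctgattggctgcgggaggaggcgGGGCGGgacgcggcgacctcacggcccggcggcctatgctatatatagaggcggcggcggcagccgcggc
LRIG1, chr3:66501023-66501272, minus strand (LRIG1-201): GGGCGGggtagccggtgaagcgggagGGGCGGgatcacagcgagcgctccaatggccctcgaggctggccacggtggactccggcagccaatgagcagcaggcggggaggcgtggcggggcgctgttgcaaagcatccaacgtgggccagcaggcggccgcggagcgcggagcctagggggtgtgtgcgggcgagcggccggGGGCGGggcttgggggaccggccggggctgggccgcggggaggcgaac
The window of EGFR held 2 GC boxes, that of ERRFI1 held 1 and that of LRIG1 held 3. A GC box was in 42.6% of 35116 RefSeq promoter windows of this length. The windows had 73.6%, 75.2% and 76.4% G and C in the order above, against a median of 58.0% over all windows. None of these 3 windows held TATAAA (in 10.7% of all windows), the AP-1 motif TGANTCA (6.57%), the FOXO motif GTAAACA (2.98%), the ETS motif CCGGAAGT (3.42%) or the CRE TGACGTCA (1.65%), searched on both strands. The search was for these exact letters, and the ERRFI1 window holds TATATATA near its end. RefSeq lists other starts for EGFR and LRIG1, and the windows before 2 of them differed. The window of an EGFR start 90822 bases downstream of that of EGFR-201 held TATAAA and the AP-1 motif 2 times each, and that of an LRIG1 start 446 bases from the start of LRIG1-207 held the AP-1 motif 2 times, both without a GC box. The promoter entry of ERBB2 began 11970 bases before the start of its main transcript and is not shown.

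EGFR mRNA rose in PS PC9, ERBB3, ERRFI1 and ERBB2 mRNA fell, and LRIG1 was counted almost only in PS PC9. EGFR, ERBB2, ERBB3 and ERRFI1 had enough counts in both groups to be tested, and these 4 passed the limit, an adjusted p-value under 0.01 in edgeR's quasi-likelihood test over 14626 genes. In the same test 56.8% of all genes passed, 28.7% with a higher and 28.1% with a lower level in PS PC9, so a call was common in this comparison. LRIG1 passed the filter on low counts only through the PS PC9 group, and it is described by its counts, with no test. The libraries of the groups did not overlap for any of these 4, as for 71.3% of all genes tested. Among all genes the median size of a log2 fold change was 0.33 and the median log2 fold change was -0.0061.

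EGFR (chr7:55019017-55211628, plus strand) was the receptor with the highest mRNA level per length in both groups. Gene counts were scaled by library size and TMM factor to CPM. Scaled by library size alone, 3 counts in a library are 0.0860 to 0.102 CPM. The CPM of EGFR were 626, 589.8 and 639 in PC9 and 899, 849 and 880.3 in PS PC9. The lowest PS PC9 library was above the highest PC9 library. The mean went from 618 ± 25.7 to 876 ± 25.1 CPM (SD, n = 3 each), a 1.42-fold rise. The log2 fold change was 0.50 (SE 0.0401, 95% interval 0.41 to 0.59) with an edgeR adjusted p of 1.00e-06. Its size was larger than that of 66.9% of the genes tested. The antisense gene EGFR-AS1 shares 186 exon bases with EGFR and was not analysed here.

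ERBB3 (chr12:56076799-56103505, plus strand), the receptor that couples to PI3K, had the largest fall among the receptors. Its CPM were 207, 209 and 209 in PC9 and 125, 127 and 123 in PS PC9, so that both groups were tight and far apart. The mean fell from 208 ± 1.37 to 125 ± 1.78 CPM (SD, n = 3 each), which is 1.67-fold lower. The log2 fold change was -0.74 (SE 0.0340, 95% interval -0.82 to -0.67) with an edgeR adjusted p of 1.33e-08, and 80.2% of the genes tested had a smaller change. A protein-coding gene without a symbol shares 31 exon bases with ERBB3 on the same strand and was not analysed here.

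ERBB2 (chr17:39687914-39730426, plus strand), the common partner of the other receptors, fell less. Its CPM were 114, 130.3 and 123 in PC9 and 94.5, 102 and 104 in PS PC9. The gap between the lowest PC9 and the highest PS PC9 library was narrow. The mean fell from 123 ± 8.04 to 100.1 ± 4.97 CPM (SD, n = 3 each), a log2 fold change of -0.29 (SE 0.0545, 95% interval -0.41 to -0.17) with an edgeR adjusted p of 6.64e-04. Only 45.9% of the genes tested had a smaller change. The genes MIEN1 and PGAP3 share 571 and 144 exon bases with ERBB2 on the opposite strand, and whether the reads were counted by strand is not given in the sources used here. Neither passed the limit, with log2 fold changes of -0.16 and 0.020.

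ERBB4 (chr2:211375717-212538841, minus strand), the neuregulin receptor, was close to undetected. It had 3, 1 and 5 counts in PC9 and 5, 6 and 1 counts in PS PC9. These ranges overlapped, and the gene was too low to be tested. Its totals were 9 counts in PC9 (exact Poisson 95% interval 4.12 to 17.1) and 12 in PS PC9 (6.20 to 21.0), intervals that cover counting error only. A difference between the groups was not detectable at this depth.

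ERRFI1 (chr1:8004404-8026309, minus strand), the kinase-domain inhibitor, fell while EGFR rose. Its CPM were 75.8, 77.5 and 77.2 in PC9 and 57.6, 56.0 and 56.2 in PS PC9, with no overlap. The mean fell from 76.8 ± 0.903 to 56.6 ± 0.840 CPM (SD, n = 3 each), a log2 fold change of -0.44 (SE 0.0383, 95% interval -0.53 to -0.36) with an edgeR adjusted p of 1.94e-06. Its size was larger than that of 61.8% of the genes tested. An antisense noncoding gene without a symbol shares 155 exon bases with ERRFI1 and was not analysed here.

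LRIG1 (chr3:66378797-66501263, minus strand), the inhibitor that acts from the membrane, was almost without counts in parental cells. It had 0, 0 and 1 counts in PC9 and 31, 33 and 27 counts in PS PC9. All 3 PS PC9 libraries were thus near the same low level, 0.967 ± 0.153 CPM (SD, n = 3). After scaling for library size, 91 counts in PS PC9 against 1 in PC9 gave a ratio of 98.0 with a 95% interval of 17.1 to 3912 from counting error alone. That interval pools the libraries of each group and leaves out the spread between them, so it is a description and not a test. The gene SLC25A26 shares 2669 exon bases with LRIG1 on the opposite strand. SLC25A26 had 599, 692 and 658 counts in PC9 and 590, 581 and 699 in PS PC9, and it did not pass the limit (log2 fold change 0.046, 95% interval -0.11 to 0.20).

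**Figure D1:**
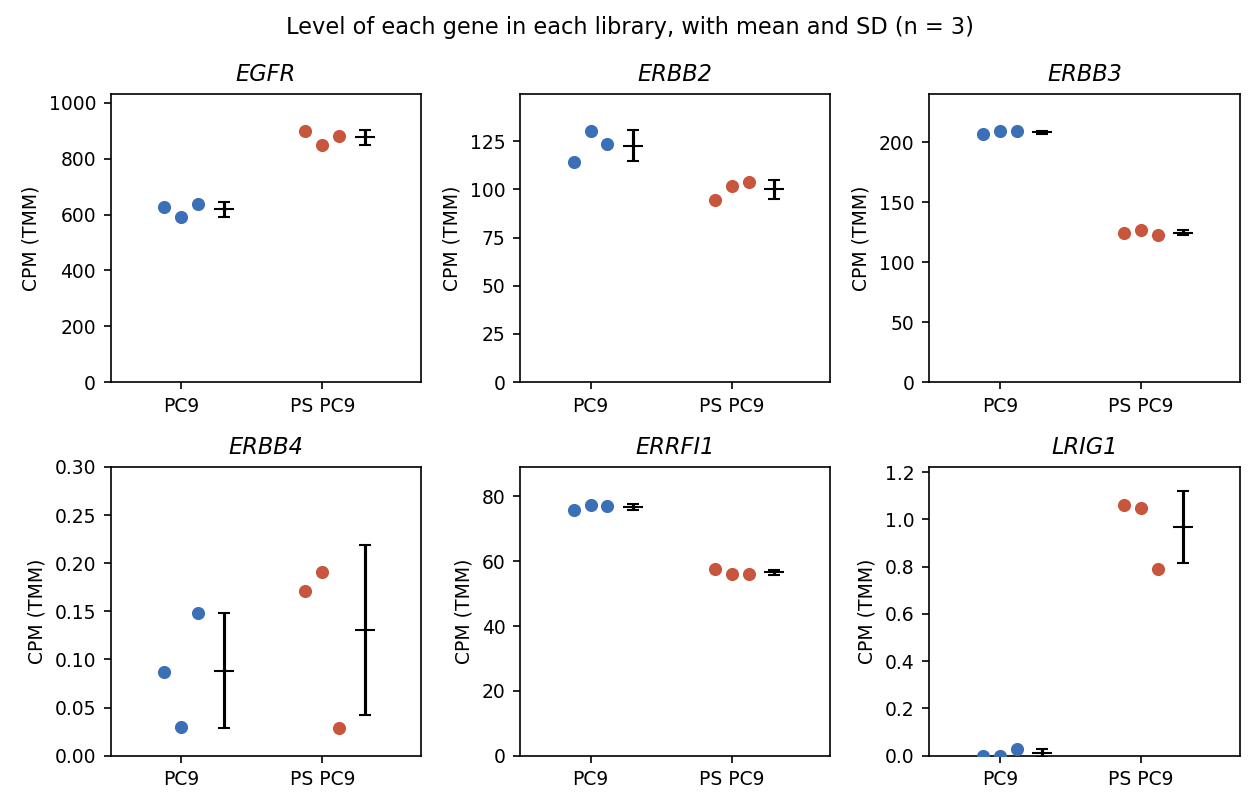
TMM-scaled CPM (linear axis from 0) of each of the 6 genes in the 3 PC9 and 3 PS PC9 libraries, 1 point per library, with bars for the mean and SD of each group. EGFR and LRIG1 points are higher in PS PC9 and ERBB2, ERBB3 and ERRFI1 points are lower, without overlap, while the ERBB4 points overlap near 0.

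Only fold changes within a gene are comparable in CPM, so levels of different genes were compared per length. The counts of the transcripts matched to GENCODE were divided by transcript length and scaled to the same sum over all matched transcripts in every library, which gives a TPM value. EGFR had 110.3, 110.0 and 117 TPM in PC9 and 180.4, 159 and 169 TPM in PS PC9. ERBB3 had 80.8, 80.8 and 79.9 TPM in PC9 and 53.7, 50.0 and 50.9 TPM in PS PC9. ERBB2 had 56.6, 63.5 and 60.0 TPM in PC9 and 47.7, 46.3 and 49.3 TPM in PS PC9. In PC9 the order was EGFR, ERBB3, ERBB2 and then ERRFI1 (50.2 ± 2.05 TPM, SD, n = 3), and no ranges of neighbors overlapped. In PS PC9 EGFR stood well apart, the gap between ERBB3 and ERBB2 was smaller than the range of the ERBB3 libraries, and ERRFI1 was lower at 38.3 ± 1.25 TPM. ERBB4 was at 0.0400 TPM or less in every library.

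The receptor levels were also summed and given as shares of that sum. The summed level was 248, 254 and 257 TPM in PC9 and 282, 255 and 269 TPM in PS PC9, with overlap between the groups. The means were 253 ± 4.59 and 269 ± 13.2 TPM (SD, n = 3 each; exact permutation p = 0.2, two-sided). EGFR made up 44.5%, 43.3% and 45.5% of the sum in PC9 and 64.0%, 62.3% and 62.7% in PS PC9, a difference of 18.6 percentage points between means of 44.4% ± 1.1 and 63.0% ± 0.903. ERBB3 made up 32.6%, 31.8% and 31.2% in PC9 and 19.1%, 19.6% and 18.9% in PS PC9, a difference of -12.7 points between the means. ERBB2 made up 22.8%, 24.98% and 23.4% in PC9 and 16.9%, 18.1% and 18.4% in PS PC9, a difference of -5.94 points. None of these 3 shares overlapped between the groups. The exact permutation p was 0.1 for each, the smallest that 3 libraries against 3 allow, and 0.133 after adjustment over the 4 receptors, so these differences could not pass a limit of 0.05. TPM leaves out counts on transcripts without a GENCODE match. For EGFR these were 1530, 1049 and 1453 counts in PC9 and 758, 1225 and 1129 in PS PC9. For ERBB2 and ERBB3 they were at most 2 per library. EGFR rose 1.51-fold in TPM and 1.42-fold from gene counts. The shares also depend on the lengths used. With the deposited gene count, which includes the unmatched counts, over the length of the main annotated transcript EGFR went from 49.4% to 66.7%. The total depended on the scale as well. Not divided by length, the TMM-scaled CPM of the 4 receptors summed to 929 to 972 in PC9. In PS PC9 that sum was 1078 to 1118 CPM, without overlap.

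**Figure D2:**
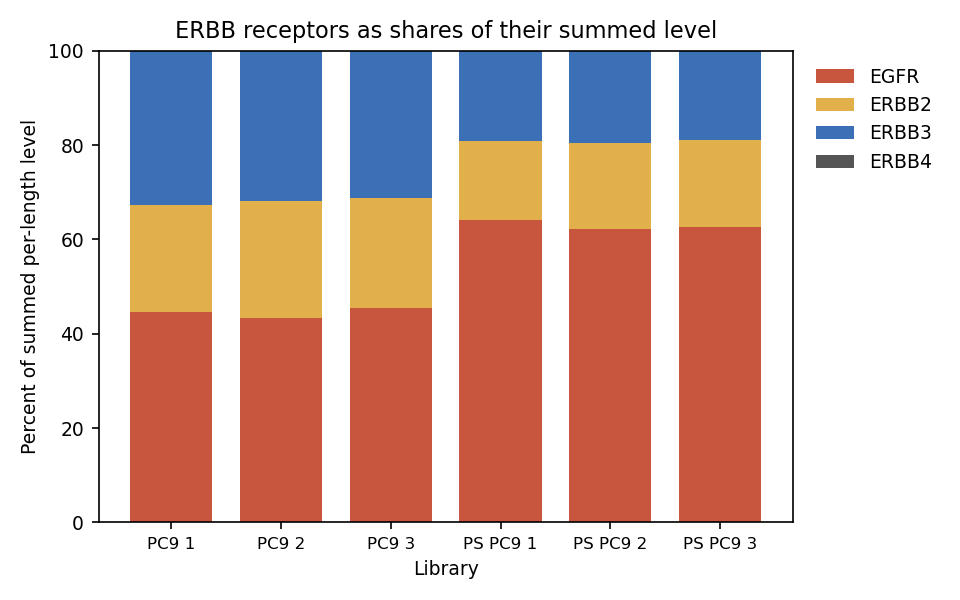
Percent of the summed per-length level of the 4 ERBB receptors held by each receptor (y axis, 0 to 100) in each of the 6 libraries (x axis). The EGFR segment is 43.3% to 45.5% in PC9 and 62.3% to 64.0% in PS PC9, and the ERBB4 segment is too thin to see.

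Ratios within a library showed the same shift, as a description with no test, and they too leave out the unmatched EGFR counts. EGFR per ERBB3 was 1.37, 1.36 and 1.46 in PC9 and 3.36, 3.18 and 3.31 in PS PC9. EGFR per ERBB2 went from 1.88 ± 0.124 to 3.55 ± 0.206, and ERBB2 per ERBB3 from 0.746 ± 0.0435 to 0.928 ± 0.0409 (SD, n = 3 each). ERRFI1 per EGFR, the inhibitor set against its target, was 0.435, 0.473 and 0.435 in PC9 and 0.220, 0.239 and 0.221 in PS PC9, from 0.448 ± 0.0217 to 0.227 ± 0.0105 on the per-length scale.

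Of the 76 transcripts of these genes matched to GENCODE, 19 could be tested and 3 passed the limit of 0.01. Of those, 1 had a higher and 2 had a lower level, while 7.80% of all 54499 transcripts tested passed. A mean of at least 1 CPM in either group was reached by 16 transcripts, the others stayed at or under 0.702 CPM, and 23 had no count in any library. Among the matched transcripts, EGFR was in effect 1 transcript. EGFR-201, the main annotated form with 28 exons and a length of 9905 bases, held 99.8% to 99.9% of the matched EGFR counts in every library. Its CPM were 585, 568 and 606 in PC9 and 867, 806 and 845 in PS PC9, a log2 fold change of 0.52 with an edgeR adjusted p of 6.83e-04. The shorter coding forms of EGFR that stop before the kinase domain, such as EGFR-203, had at most 14 counts per library. Between 2.89% and 7.10% of the EGFR count was on transcripts without a match in GENCODE.

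For ERBB3 the main form fell with the gene. ERBB3-201 held 76.7% to 85.1% of the ERBB3 counts and its CPM were 160, 173 and 181 in PC9 and 98.1, 106 and 103 in PS PC9. Its log2 fold change was -0.75 with an edgeR adjusted p of 7.87e-04. ERBB3-203, the coding form with the next highest count, had means of 25.7 ± 5.11 CPM (PC9) and 11.4 ± 3.17 CPM (PS PC9, SD, n = 3 each) and did not pass the limit (log2 fold change -1.17, edgeR adjusted p = 0.0226). ERBB3-214, with means of 9.85 CPM (PC9) and 6.59 CPM (PS PC9), and ERBB3-213, with 3.07 and 2.27 CPM, did not pass either.

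ERRFI1-201 held 95.1% to 97.2% of the ERRFI1 counts. Its CPM were 74.2, 76.3 and 76.0 in PC9 and 55.4, 53.1 and 54.2 in PS PC9, a log2 fold change of -0.48 with an edgeR adjusted p of 7.93e-04. The transcripts ERRFI1-205, annotated for nonsense-mediated decay, and ERRFI1-202 had group means from 0.816 to 1.46 CPM and did not pass.

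The fall of ERBB2 was not resolved to a transcript. ERBB2-201 held 61.9% to 76.1% of the ERBB2 counts, and its CPM were 83.6, 101 and 77.7 for the parental libraries and 60.8, 72.2 and 77.9 for the persister libraries. These ranges overlapped. With an edgeR adjusted p of 0.179, the log2 fold change of -0.31 did not pass. The assignment to the other forms was unsteady within a group, as for ERBB2-204, which had 226, 5 and 482 counts in PC9 and 140, 193 and 30 in PS PC9. ERBB2-210 had 70, 51 and 54 counts in PC9 and 0, 0 and 16 in PS PC9, without overlap, and it did not pass the limit (edgeR adjusted p = 0.179). The remaining named forms ERBB2-203, ERBB2-205, ERBB2-206, ERBB2-214 and ERBB2-218 had means from 1.05 to 8.66 CPM, and none passed.

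The test of unequal change among the transcripts of a gene passed for 1.88% of 10542 genes and for none of the 3 members it covered. Its adjusted p (diffSpliceDGE with Simes' method) was 1.00 for ERBB2 over 9 transcripts, for ERBB3 over 6 and for ERRFI1 over 3. EGFR, ERBB4 and LRIG1 had fewer than 2 transcripts with both a GENCODE match and enough counts. Transcripts without a match were left out of this test, among them those holding 758 to 1530 EGFR counts per library. No matched LRIG1 transcript was abundant enough to test. LRIG1-201, the full-length coding form, had 0, 11 and 4 counts in PS PC9, and LRIG1-207, a form with no defined coding sequence that starts 94809 bases downstream, had 13, 6 and 9. A further 16, 16 and 14 counts were on LRIG1 transcripts without a match in GENCODE, so which start and which protein the LRIG1 counts belong to was not resolved.

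**Figure D3:**
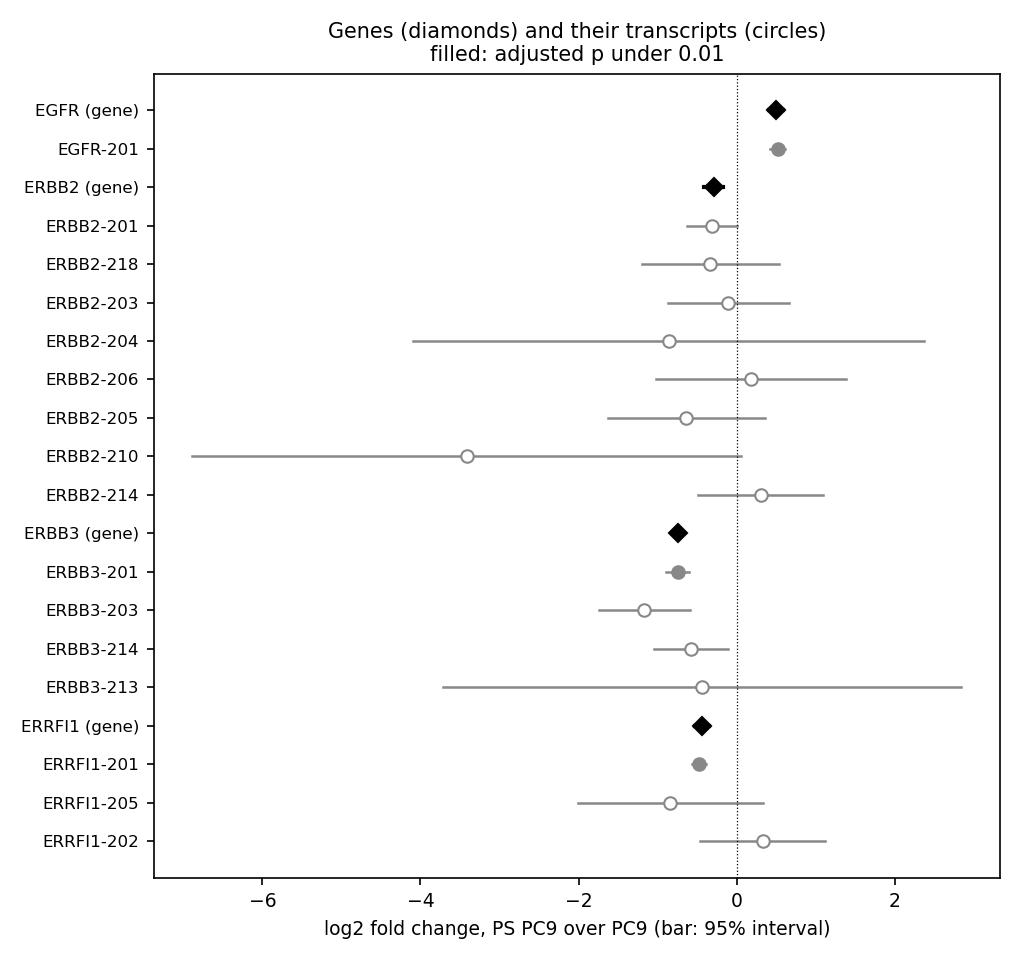
The log2 fold change of PS PC9 over PC9 (x axis) with its 95% interval for 4 of the genes (diamonds) and their transcripts with a mean of at least 1 CPM (circles), filled where the adjusted p was under 0.01. EGFR-201, ERBB3-201 and ERRFI1-201 are filled and lie beside their genes, and the open circles of ERBB2 have wide intervals.

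In these bulk libraries fewer cells that express a gene and less RNA per cell cannot be told apart. The p-values measure the spread between the libraries, which for PS PC9 were made from pooled cultures. Library totals were 29476725 to 34893782 counts. Of 5 epithelial markers EPCAM, KRT8, KRT18 and KRT19 fell and CDH1 rose, and their summed level was 5574 to 5985 CPM in PC9 and 3331 to 3499 CPM in PS PC9. Of 10 markers of blood, endothelial and mesenchymal cells 6 could be tested, COL1A1 and PDGFRB rose, PECAM1 fell, CD3E and COL3A1 had no count, and the summed level was 19.6 to 20.7 CPM in PC9 and 31.0 to 34.6 CPM in PS PC9. The call of PDGFRB was lost without PS PC9 replicate 3 (log2 fold change 1.18, edgeR adjusted p = 0.0140). The part of these markers in the receptor differences was not tested.

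The pathway around the receptors was described with 5 lists written from general knowledge, but with earlier results of these data known. Their counts are thus descriptions and not independent tests. Beside them, 56.8% of all genes passed the limit, 28.7% with a higher and 28.1% with a lower level in PS PC9. Of 11 ERBB ligands 9 could be tested, of which 3 rose, 2 fell and 4 did not pass, with a median log2 fold change of -0.021. TGFA and HBEGF, ligands of EGFR, rose. The CPM of TGFA were 53.8, 52.7 and 51.1 in PC9 and 104.6, 108 and 107 in PS PC9 (log2 fold change 1.02, edgeR adjusted p = 3.74e-09). HBEGF went from 8.58 ± 0.721 to 20.6 ± 0.674 CPM (SD, n = 3 each; log2 fold change 1.27, edgeR adjusted p = 7.20e-08). EPGN, a further EGFR ligand at a low level, also rose (0.65, edgeR adjusted p = 4.57e-03). EGF itself fell from 18.6 ± 0.548 to 8.91 ± 0.452 CPM (SD, n = 3 each; log2 fold change -1.06, edgeR adjusted p = 1.33e-07), and the ERBB4 ligand NRG4 fell by 0.42 on the log2 scale (edgeR adjusted p = 0.00704). The call of NRG4 was lost with DESeq2, with the replicate block and without any 1 of the 6 libraries (adjusted p from 0.0104 to 0.0634). That of EPGN was lost with DESeq2 and without PC9 replicate 3, PS PC9 replicate 1 or PS PC9 replicate 2 (adjusted p from 0.0144 to 0.0198). AREG, BTC, NRG1 and EREG did not pass, with log2 fold changes between -0.12 and 0.059, and NRG2 and NRG3 had too few counts to test.

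Of 24 adaptors and direct effectors, proteins that bind the phosphorylated receptor tails or are recruited by those that do, 10 rose, 3 fell and 11 did not pass (median log2 fold change 0.11). GRB10, an adaptor that binds receptor tyrosine kinases, rose from 34.5 ± 1.06 to 106.0 ± 1.97 CPM (SD, n = 3 each; log2 fold change 1.62, edgeR adjusted p = 2.02e-10). GRB7, an adaptor of the same family whose gene lies close to ERBB2, fell from 33.5 ± 1.78 to 8.30 ± 0.453 CPM (SD, n = 3 each; log2 fold change -2.01, edgeR adjusted p = 1.06e-09). PTPN11 (SHP2), the phosphatase that links receptors to RAS, rose by 0.63 and NCK2 by 0.66 on the log2 scale (edgeR adjusted p = 5.50e-08 and 4.13e-07). The others that fell were SHC1, an adaptor of EGFR and ERBB3, with a log2 fold change of -0.67, and NCK1 with -0.41. GRB2, which recruits SOS to the receptors, had 126 ± 5.27 and 136 ± 1.17 CPM (SD, n = 3 each) and did not pass.

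Of 17 genes of receptor ubiquitination and endocytosis 5 rose, 5 fell and 7 did not pass (median log2 fold change -0.00070). Without PC9 replicate 2 the list had 7 that rose and 8 that fell. CBLC, a ubiquitin ligase of the CBL family, fell from 40.2 ± 3.00 to 15.9 ± 0.773 CPM (SD, n = 3 each; log2 fold change -1.33, edgeR adjusted p = 2.55e-08). Its relative CBLB fell by 0.61, and CBL, the family member best known for EGFR, had a log2 fold change of -0.15 and did not pass (edgeR adjusted p = 0.0639). Without PC9 replicate 2 CBL passed (edgeR adjusted p = 0.00602), and CBLB was lost when gene counts were summed from matched transcripts (edgeR adjusted p = 0.0216). The ligases NEDD4 (0.60) and RNF41, which ubiquitinates ERBB3 (0.55), rose, as did the CBL-binding protein SH3KBP1 (0.57). ITCH, a further ligase, fell by 0.63. STAM2 (0.36) and EPN1 (0.33) also rose, and TSG101 and EPN2 fell by 0.32 and 0.27 on the log2 scale.

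Of 11 other inhibitors and phosphatases of the receptors 2 rose, 4 fell and 5 did not pass (median log2 fold change 0.072). PTPRJ, a receptor phosphatase, rose by 0.46 (edgeR adjusted p = 4.64e-06), and SOCS4 by 0.40. SOCS5, PTPN12 and PTPN1 fell by 0.39, 0.26 and 0.24. Of the paralogs of LRIG1, LRIG3 fell from 13.4 ± 0.931 to 10.1 ± 0.678 CPM (SD, n = 3 each; log2 fold change -0.41, edgeR adjusted p = 9.21e-04), and LRIG2 had 11.8 ± 0.479 and 12.4 ± 0.168 CPM and did not pass.

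Of 16 genes known as transcriptional output of ERK, the kinase pathway downstream of the receptors, 13 fell, 2 rose and 1 did not pass. Their median log2 fold change was -1.24, and 28.1% of all genes tested passed with a lower level. DUSP6, a phosphatase of ERK, fell from 20.01 ± 0.871 to 1.56 ± 0.181 CPM (SD, n = 3 each; log2 fold change -3.68, edgeR adjusted p = 2.22e-10). PHLDA1 (-1.88), the transcription factor EGR1 (-1.92) and DUSP4 (-1.42) fell with adjusted p-values of 1.08e-10, 3.29e-10 and 1.18e-09 in edgeR. FOSL1 and IER3 rose by 0.27 and 0.29, and SPRED1 did not pass (edgeR adjusted p = 0.0271, or 0.00156 without PC9 replicate 2). ERRFI1, which is also known as an ERK-induced gene and was not in this list, fell by 0.44. A link between that fall and the ERK output genes was not tested.

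**Figure D4:**
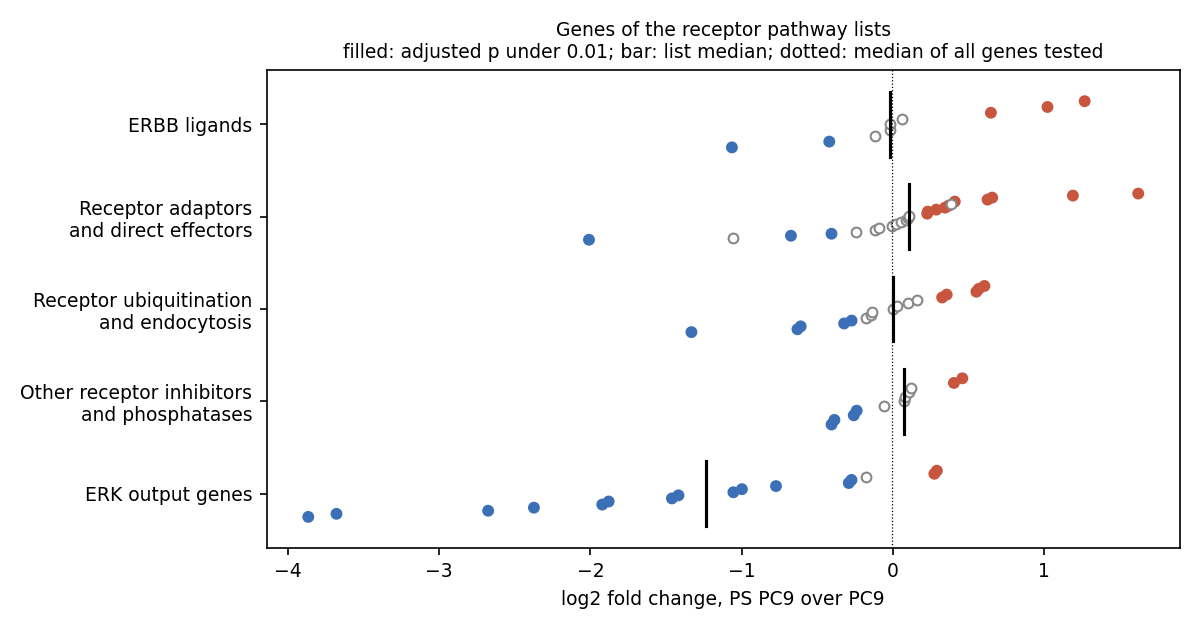
The log2 fold change of PS PC9 over PC9 (x axis) of each tested gene in 5 lists (rows), filled where the adjusted p was under 0.01, with a bar at the median of each list and a dotted line at the median of all genes. Genes of the ERK output list lie mostly left of 0 (median -1.24), and those of the other 4 lists lie on both sides.

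The genes whose profiles over the 6 libraries were nearest to a member were found by the Euclidean distance between log2 CPM values centered on their own mean. They were RALGAPB (distance 0.0388) and FNIP2 (0.0494) for EGFR, and FKBP10 (0.0209) and NLGN2 (0.0436) for ERBB2. CCDC113 (0.0379) and ARHGEF28 (0.0416) were nearest to ERBB3, and CTNND1 (0.0293) and TXNIP (0.0390) to ERRFI1. LRIG1 had no close neighbor, the nearest being ALOX5AP (0.547) and AL022238.4 (0.570). These distances were dominated by the difference between the 2 groups and describe 6 points each.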

How the data were processed

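The labels gave the group and replicate number of each sample. The drug dose and the pooling of cultures are from the methods of the study. The authors made poly-A libraries with TruSeq chemistry, trimmed adaptors with bases2fastq, applied FASTP and pseudoaligned paired reads with Kallisto 0.46.1 to Ensembl transcripts of GRCh38. Tool versions given here are from the submitters' processing notes, which also name Sleuth 0.30.0. The authors deposited estimated counts as whole numbers, per gene symbol and per transcript, without normalization. No test here carries the error that Kallisto makes in dividing reads among similar transcripts. Libraries of another laboratory that the study combined with these were not analysed here.

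Both tables were fitted with edgeR 4.0.16 in R 4.3.3 (filterByExpr defaults, TMM, glmQLFit and glmQLFTest without a block, Benjamini-Hochberg adjustment over all genes or transcripts tested, limit 0.01). Standard errors are the absolute log2 fold change over the square root of the F statistic. Transcript usage was tested with diffSpliceDGE. Lengths, starts and coordinates are from GENCODE 44, which matched 167067 transcripts with 95.8% of the transcript counts. Of the 16 transcripts named by level, 14 had the same version as in the files, and ERBB2-201 and ERBB3-201 did not. Shares were compared by a two-sided exact permutation test. Squared differences between replicate libraries were 3.53 to 21.1 times those of sampling noise (chi-square per degree of freedom). Replicate libraries were kept apart.

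The members and lists were chosen with earlier results of these data known. Named beyond the members were transcripts with a mean of at least 1 CPM in either group, the 2 genes nearest to each member except ERBB4, and up to 4 genes per list with the smallest p. NRG4, SHC1, NCK1, GRB2, CBL, CBLB, RNF41, STAM2, EPN1, TSG101, EPN2, SOCS4, LRIG2, LRIG3, IER3, FOSL1, SPRED1, the ligands that did not pass, EGFR-203, LRIG1-201, LRIG1-207 and the overlapping genes were named after their values were seen. On simulated counts changed by a log2 fold change of 1, the gene test recovered 89.5% of 200 genes with 0.556% of calls wrong (14626 genes), and the transcript test 65.5% of 200 transcripts with 2.24% wrong (54499 transcripts). The usage test recovered 55.7% of 176 genes with 2.00% wrong (10378 genes). The simulated counts had 1 dispersion for all features and no error in dividing reads among transcripts. The tested members also changed by less than the simulated size, so these rates do not describe the tests on the real counts. Alternatives were other normalizations, no filter, DESeq2 1.42.0, limma 3.58.1 (voom), a replicate block, gene counts made from the matched transcripts, fits without each library in turn, other limits and other length scalings. Figures were drawn with matplotlib 3.10.9.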

Additional observations from a re-analysis of the deposited data

How the results depend on the processing

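Over 16 alternatives at the gene level the direction of EGFR, ERBB2, ERBB3 and ERRFI1 held and the adjusted p stayed under 0.01. The alternatives that changed only the limit (adjusted p under 0.05, or a fold change above 2 as well) used the main fit, so neither could differ there. The log2 fold change ranged from 0.45 to 0.54 for EGFR, -0.35 to -0.25 for ERBB2, -0.79 to -0.73 for ERBB3 and -0.49 to -0.43 for ERRFI1. The largest adjusted p was 0.00423, for ERBB2. With a fold change above 2 required as well, 1691 genes passed in place of 8307, and EGFR (0.50), ERBB2 (-0.29), ERBB3 (-0.74) and ERRFI1 (-0.44) did not reach that size. The sources used here do not say that the replicate numbers pair the libraries. Deviations of same-numbered libraries correlated at 0.124, 0.0236 and 0.0215, and not every library correlated best with its own number. These few correlations cannot settle whether the libraries were paired. With the replicate block 8671 genes passed in place of 8307, 813 transcripts in place of 4252 and 98 genes in usage in place of 198. Under that block EGFR-201 and ERBB3-201 passed (adjusted p = 0.00831 and 0.00797) and ERRFI1-201 did not (-0.48, adjusted p = 0.0165). Leaving out 1 library gave 1549 to 2649 transcripts, and EGFR-201, ERBB3-201 and ERRFI1-201 passed each time. The difference in share was 14.4, -3.83 and -10.6 percentage points for EGFR, ERBB2 and ERBB3 from counts without length, and 17.3 and -4.72 for EGFR and ERBB2 from gene counts over the main transcript's length, an alternative chosen after seeing the data. The cause of these shifts was not tested beyond the length itself. These gene counts, unlike the main shares, include the EGFR counts on unmatched transcripts. No other alternative moved a call of these 4 genes. Depth limits ERBB4 and the transcripts of LRIG1.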
